A study of Mus musculus with 11 samples.

Results

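Glutamate acts on cells through ion channels and through metabotropic receptors, which are coupled to G proteins. The 7 metabotropic glutamate receptor genes described here are Grm2, Grm3, Grm4, Grm5, Grm6, Grm7 and Grm8, found by their symbols among the 25827 genes of the deposited tables. They were followed through single-nucleus RNA sequencing of 11 mouse samples, in which cerebellum, brainstem and cervical cord were processed together. In 4 samples the mice were Il12rb2fl/fl with experimental autoimmune encephalomyelitis (EAE), a model of multiple sclerosis, and are called fl EAE; 4 samples were NestinCre/+Il12rb2fl/fl with EAE (NestinCre EAE), 2 were non-immunized Il12rb2fl/fl (fl naive) and 1 was non-immunized NestinCre/+Il12rb2fl/fl (NestinCre naive). All mice, the controls included, carried the floxed Il12rb2 alleles, which encode a chain of the receptor for interleukin-12, and were adult males aged 8 to 12 weeks. EAE was induced with 200 µg of the myelin peptide MOG35-55 in complete Freund's adjuvant and 50 to 100 ng of pertussis toxin, and tissue was taken on day 10. Cre under the Nestin promoter acts in neural precursors, and so in neurons, astrocytes and oligodendrocytes but not in microglia. Nuclei were sorted on the DNA dye Hoechst alone, and the study asked in which cells of the central nervous system interleukin-12 acts during neuroinflammation.

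Metabotropic glutamate receptors fall into 3 groups by sequence and G protein. Grm5 belongs to group I, which couples to Gq and raises calcium through phospholipase C. Grm2 and Grm3 form group II, and Grm4, Grm6, Grm7 and Grm8 form group III; both groups couple to Gi/o and lower cyclic AMP. In neurons, group III receptors sit mostly on presynaptic terminals, where they limit transmitter release, while group I receptors sit mostly on the postsynaptic side. Grm6 is the receptor of retinal ON bipolar cells. Pertussis toxin, which was given to the EAE mice and not to the naive ones, blocks Gi/o proteins.

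In the 11 samples, 159282 nuclei were kept (11599 to 18477 per sample, median 2372 UMIs per nucleus, a UMI being 1 counted RNA molecule), and 144609 of them fell into the 7 neuron and 5 glia classes used here. Classes were named from marker genes, so that each name stands for nuclei like that type. Granule cells were by far the most frequent (100420 nuclei), followed by mature oligodendrocytes (20586), molecular layer interneurons (7921), excitatory neurons (5455) and inhibitory neurons (3722) outside the cerebellar cortex, microglia (2288), astrocytes (1272), oligodendrocyte progenitor cells (OPCs, 900), Bergmann glia (757), Purkinje cells (537), Golgi cells (385) and unipolar brush cells (366). All markers of a class were highest in that class for Purkinje cells (6 of 6), OPCs (6 of 6), astrocytes, mature oligodendrocytes and microglia (7 of 7 each), and 5 of 6 were for granule cells and Bergmann glia. The share was 4 of 6 for excitatory neurons, 3 of 4 for unipolar brush cells, 2 of 6 for molecular layer interneurons, 2 of 5 for Golgi cells and 2 of 7 for inhibitory neurons. Golgi cells and inhibitory neurons share transmitter genes with other classes (Gad1 and Slc32a1 were highest in molecular layer interneurons), and of the molecular layer interneuron list Tfap2b, Ptprk, Nxph1 and Cdh22 were higher in another class. Other misses were not transmitter genes. Sst of the Golgi cell list was highest in mature oligodendrocytes and Lhx1 of the inhibitory neuron list in Purkinje cells. Of the excitatory neuron list, Onecut2 was highest in mature oligodendrocytes and Nefh, by a small margin, in microglia. Over whole libraries Il12rb2 stood at 8.10 to 17.0 CPM (UMIs of the gene per 1000000 UMIs) in both genotypes. These are UMIs from anywhere in the gene, so this value does not check the deletion.

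Levels are given in CPM, here per 1000000 UMIs of the class in that sample, as mean ± SD over the 11 samples unless stated. Grm4 was highest in granule cells, Grm2 in Golgi cells, Grm3 in mature oligodendrocytes, Grm5 in OPCs and in the neurons outside the cerebellar cortex, Grm7 in Purkinje cells and Grm8 in unipolar brush cells. For 5 of the 7 receptors the highest class exceeded the next class in 11 of 11 samples (Grm2, Grm3, Grm4, Grm7 and Grm8; exact two-sided paired permutation test, p = 0.000977, the smallest that 11 pairs can give, adjusted p = 0.00137 over the 7 receptors). The exceptions were Grm5, with 8 of 11 samples (p = 0.110, adjusted p = 0.129, same exact permutation test), and Grm6, which was close to 0 everywhere. Without fl naive replicate 3, the sample with the lowest level of Grm5 in OPCs, 6 receptors passed instead of 5. Both classes of each pair were chosen as the highest in these same samples.

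**Figure D1:**
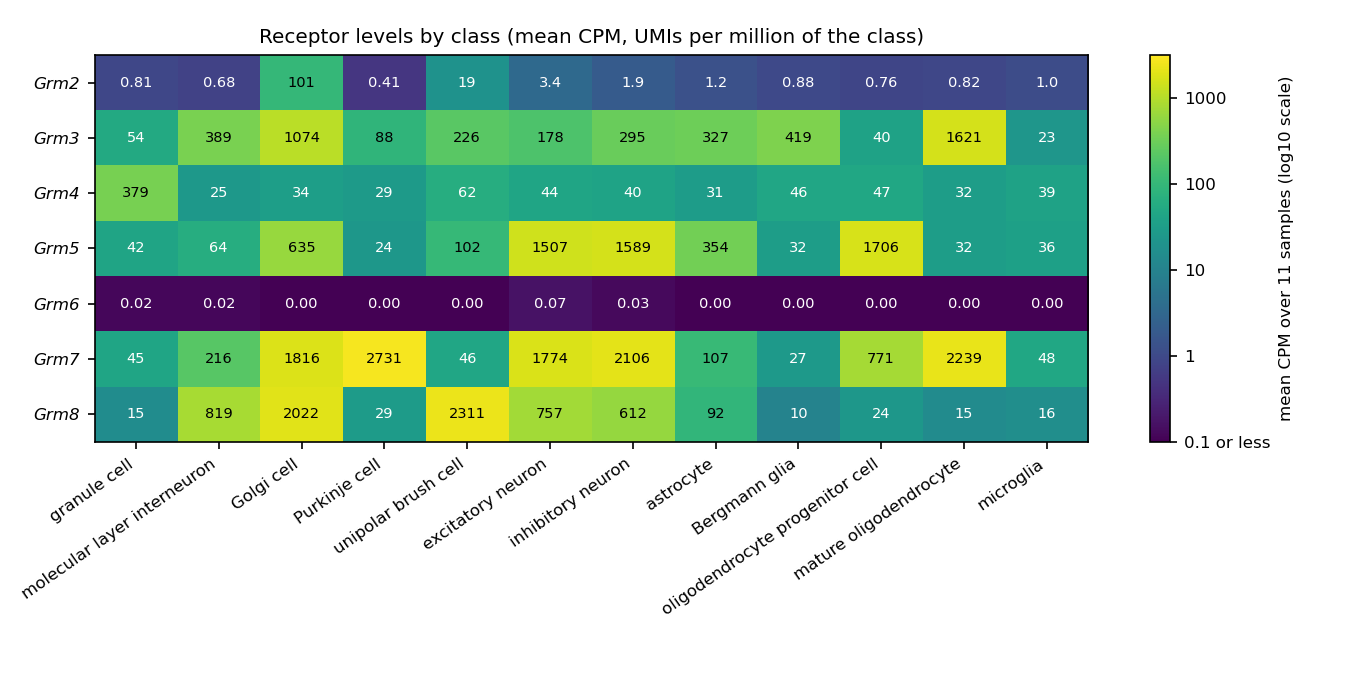
Mean level over 11 samples of the 7 receptor genes (rows) in 12 classes (columns), in CPM, with the mean printed in each cell and the colour on a log10 scale. Grm4 stands out in granule cells (379), Grm3 and Grm7 in mature oligodendrocytes (1621 and 2239), Grm7 in Purkinje cells (2731) and Grm8 in unipolar brush cells and Golgi cells (2311 and 2022).

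Grm5, the group I receptor, was highest in OPCs and in neurons outside the cerebellar cortex. Its level ran from 1255 to 1949 CPM in OPCs (median 1798), from 1456 to 1784 in inhibitory neurons (median 1549) and from 1346 to 1696 in excitatory neurons (median 1534), so that the 3 classes overlapped. Neighbours in this order did not differ beyond their spread. The mean difference between OPCs and inhibitory neurons was 116 ± 218 CPM (SD, n = 11). Golgi cells followed at 635 ± 73.3 CPM and astrocytes at 354 ± 108 CPM, which was below Golgi cells in 11 of 11 samples. Unipolar brush cells had 102 ± 52.7 CPM and molecular layer interneurons 64.3 ± 16.2 CPM. In granule cells, microglia, Bergmann glia, mature oligodendrocytes and Purkinje cells the mean lay between 24.2 and 42.1 CPM. Along the oligodendrocyte lineage the gene was thus at its highest at the start, and 143 nuclei of newly formed oligodendrocytes, too few for a value per sample, had 310 CPM when pooled, against 32.0 ± 10.9 CPM in mature oligodendrocytes.

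To compare classes sequenced to unlike depths, the share of nuclei with at least 1 UMI was computed for 1000 UMIs drawn per nucleus. Grm5 then had a UMI in 75.0% of OPCs, 67.7% of inhibitory and 68.5% of excitatory neurons, and in 3.52% of microglia. Without that step the shares were 95.1%, 97.0%, 96.9% and 6.66%. Over 11 clusters of inhibitory neurons the pooled level of Grm5 ran from 672 to 4543 CPM. Over 14 clusters of excitatory neurons it ran from 644 to 2955 CPM.

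**Figure D2:**
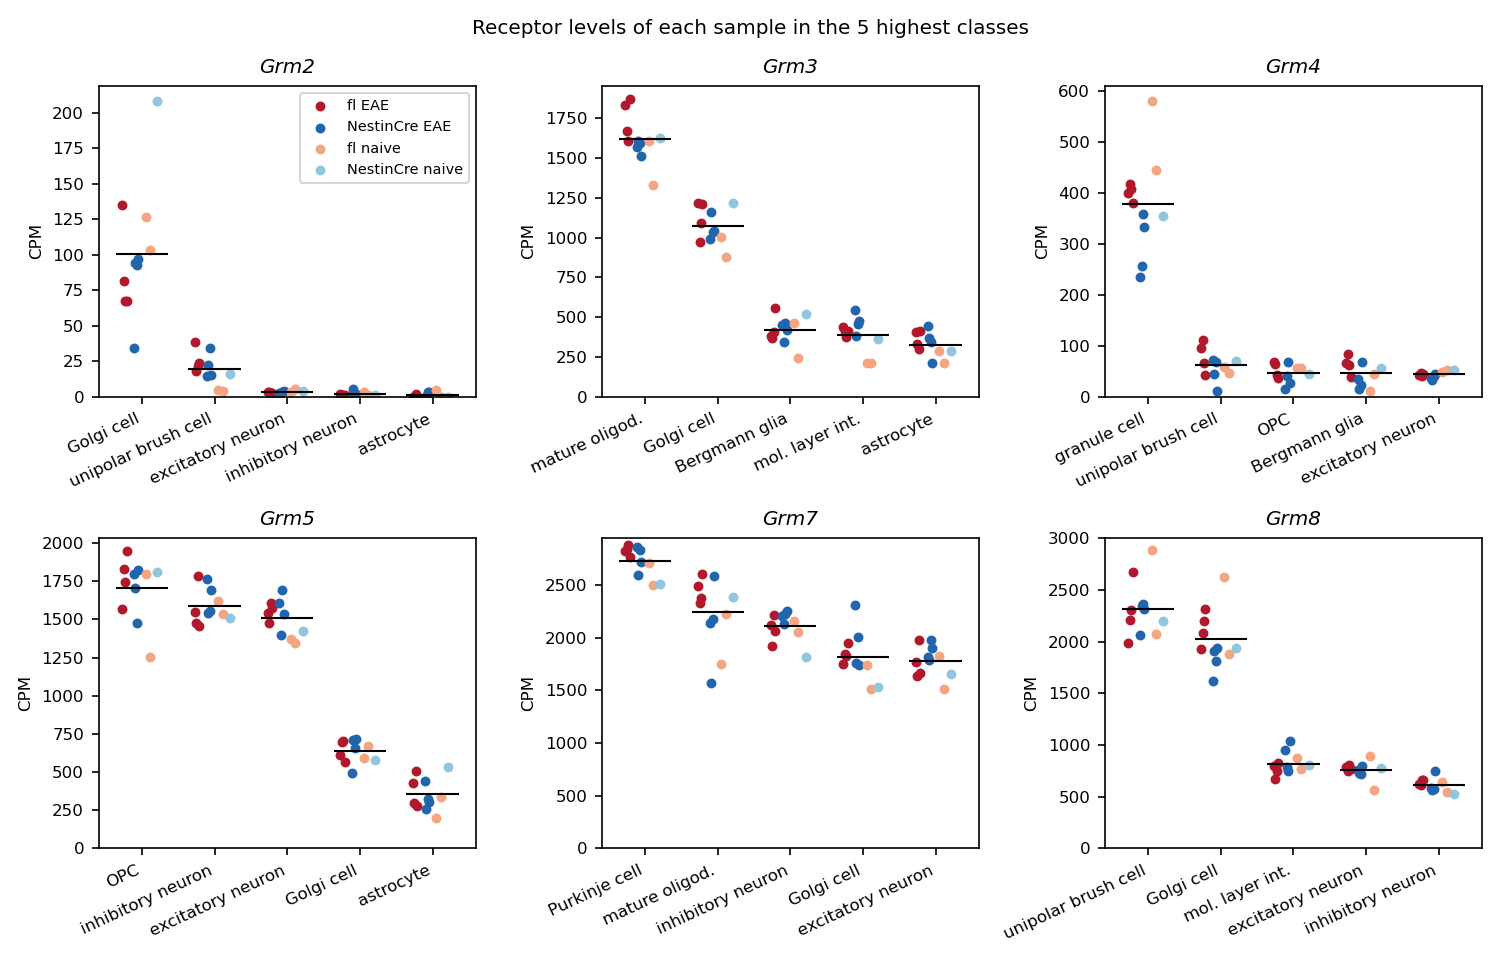
Level of 6 receptor genes in each sample (points, CPM, coloured by group) in the 5 classes with the highest mean, with a black line at the mean of the 11 samples. The points of Grm4 in granule cells (234 to 581 CPM) lie above those of every other class, while those of Grm5 in OPCs, inhibitory and excitatory neurons overlap.

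Grm2 and Grm3, the group II pair, differed widely in level and in class. Grm2 was highest in Golgi cells, the inhibitory interneurons of the granular layer, with 34.2 to 208 CPM (median 94.3). Unipolar brush cells, glutamatergic interneurons of the same layer, had 3.95 to 38.3 CPM (median 18.4) and were the next class, and the ranges of both classes overlapped. In the 10 other classes the mean was at most 3.39 CPM, reached in excitatory neurons. The counts behind these values were small, 393 UMIs in Golgi cells and 33 in unipolar brush cells of 980 in all 12 classes, and Golgi cells held 40.1% of them while granule cells, at 0.81 CPM, held 200 UMIs.

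Grm3 was high in mature oligodendrocytes and in Golgi cells, intermediate in Bergmann glia, astrocytes and several neuron classes, and lowest in OPCs and microglia. Mature oligodendrocytes had 1331 to 1869 CPM (median 1607) and held 58.3% of the 137214 UMIs of this gene. Golgi cells came next with 878 to 1216 CPM (median 1039), below mature oligodendrocytes in each sample and without overlap between the ranges. Bergmann glia, the radial astrocytes of the cerebellar cortex, had 419 ± 86.7 CPM, molecular layer interneurons 389 ± 102 CPM and astrocytes 327 ± 77.5 CPM. Bergmann glia exceeded molecular layer interneurons in 6 of 11 samples (exact permutation test, p = 0.398), so that the order of these neighbours was not resolved. Microglia had 23.2 ± 10.2 CPM and OPCs 39.6 ± 21.8 CPM. Grm3 and Grm5 were at opposite ends of the oligodendrocyte lineage, since OPCs had Grm5 and little Grm3, mature oligodendrocytes Grm3 and little Grm5, and newly formed oligodendrocytes had 65.1 CPM of Grm3 when pooled. At 1000 UMIs, 72.3% of mature oligodendrocytes had a Grm3 UMI against 3.93% of OPCs and 2.10% of microglia.

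Grm4, of group III, is the receptor of parallel fibre terminals, the axons of granule cells. Of its 103172 UMIs in the 12 classes 92.5% were in granule cells, where the level was 234 to 581 CPM (median 379), above the highest value of any other class. Unipolar brush cells followed at 62.4 ± 26.9 CPM, and the remaining 10 classes had means of 25.5 to 47.1 CPM with overlapping ranges. UMIs of 6 granule cell genes were found in each class. Nuclei with such a UMI made up 59.9% (molecular layer interneurons) to 90.4% (unipolar brush cells) of the other classes. Of these genes, Slc17a7 was higher in unipolar brush cells (235 CPM) than in granule cells (194 CPM), so such a UMI need not stem from granule cells. Outside granule cells, Gabra6, which encodes a granule cell subunit of the GABA-A receptor, stood at 4.33% to 16.01% of its granule cell level, and Grm4 stood at 6.73% to 16.5%. In granule cells 0.424 Grm4 UMIs were counted per Gabra6 UMI (0.237 to 0.818 over the samples). The pooled ratio was 0.284 to 0.349 in the 5 glia classes and 0.375 in molecular layer interneurons, and it was above that of granule cells in unipolar brush cells (0.525), Purkinje cells (0.538), Golgi cells (0.711), excitatory neurons (1.07) and inhibitory neurons (1.14). The ranges over samples overlapped that of granule cells in each class. In nuclei without a UMI of the 6 genes, Grm4 was at 31.0 ± 8.10 CPM in mature oligodendrocytes and 34.1 ± 14.9 CPM in microglia. In all nuclei of these classes it was at 31.9 and 39.5 CPM. In OPCs it was at 19.4 ± 25.6 against 47.1 CPM and in astrocytes at 13.6 ± 13.7 against 30.7 CPM. As few as 5 such OPC nuclei and 8 such astrocyte nuclei were left in a sample, and the differences were not tested. The part of granule cell RNA in the levels of Grm4 outside granule cells was not tested further. At 1000 UMIs, 30.4% of granule cells had a Grm4 UMI against 3.84% of microglia.

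**Figure D3:**
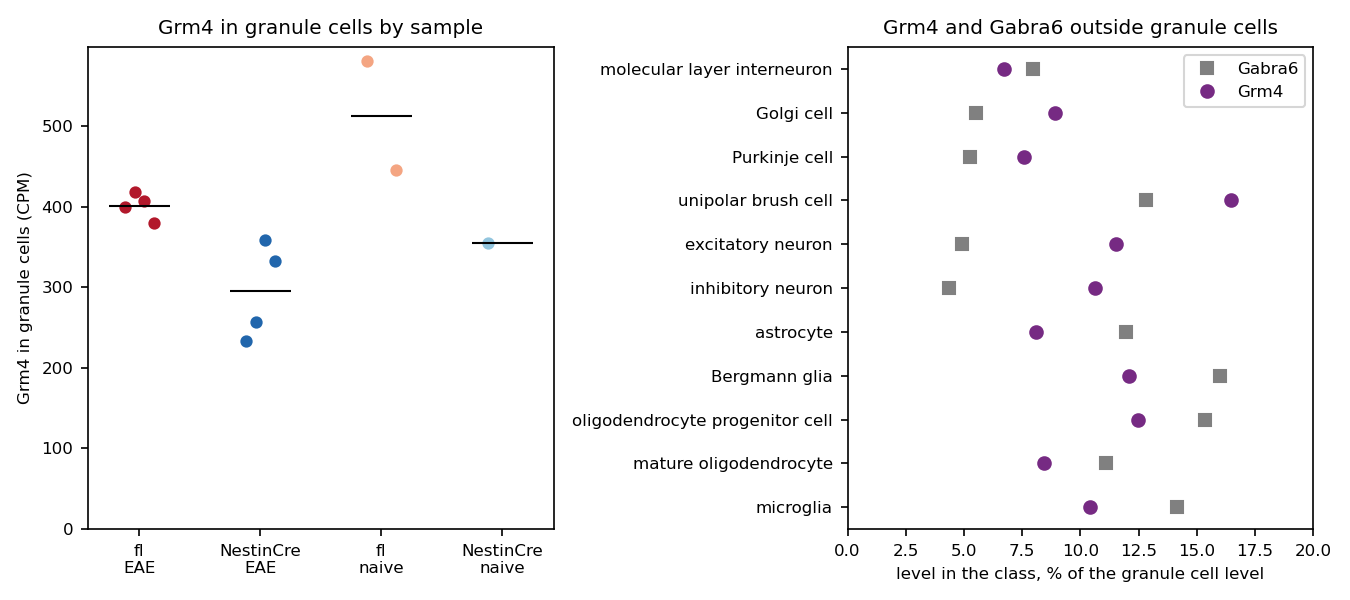
Left, Grm4 level of granule cells in each sample (CPM, points) by group, with the group mean as a line; the 4 NestinCre EAE samples lie between 234 and 359 and the 4 fl EAE samples between 379 and 418. Right, level of Grm4 (circles) and of Gabra6 (squares) in the 11 other classes as a percentage of the granule cell level, all of them at most 16.5%.

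Over the 14 granule cell clusters the pooled level of Grm4 ran from 59.9 to 483 CPM, with a median of 349. The lowest value came from a cluster of 471 nuclei led by Lmx1a, a marker of unipolar brush cells, and the next lowest (201 CPM) from 822 nuclei led by Prr5l, a gene that also led the mature oligodendrocytes. A further cluster, of 976 nuclei, was led by Nlrc5, Irgm2 and Cd274, genes induced by interferon. It had 264 CPM when pooled, with 657 of its nuclei from NestinCre EAE replicate 1, the sample with the lowest Grm4 level in granule cells, and a median of 385 CPM (224 to 434) over the 5 samples with at least 5 nuclei in it.

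Grm7 is the most widespread of the group III receptors in the brain. Purkinje cells, the output neurons of the cerebellar cortex, had 2503 to 2882 CPM (median 2767), above mature oligodendrocytes (1567 to 2600 CPM, median 2328) in 11 of 11 samples although the ranges overlapped. Inhibitory neurons had 2106 ± 135 CPM, Golgi cells 1816 ± 221 CPM and excitatory neurons 1774 ± 147 CPM. Mature oligodendrocytes and inhibitory neurons did not differ beyond their spread (higher in 7 of 11 samples, exact permutation test, p = 0.251), nor did Golgi cells and excitatory neurons (5 of 11, p = 0.539). OPCs, at 771 ± 104 CPM, lay below all of these without overlap. Molecular layer interneurons had 216 ± 26.9 CPM and astrocytes 107 ± 52.9 CPM, and the means of the 4 remaining classes, granule cells among them, were 27.5 to 48.3 CPM.

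Mature oligodendrocytes held 31.8% of the 352071 Grm7 UMIs, more than excitatory (29.1%) or inhibitory neurons (25.2%). At 1000 UMIs, 64.3% of mature oligodendrocytes and 85.1% of Purkinje cells had a Grm7 UMI, against 4.48% of microglia and 3.88% of granule cells. Newly formed oligodendrocytes had 555 CPM when pooled, below the mean of OPCs, and the 4 clusters of mature oligodendrocytes had 904 to 2702 CPM. A further 151 nuclei like monoaminergic neurons had 2421 CPM of Grm7 when pooled, and 594 CPM of Grm5.

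Grm8, of group III as well, had its highest levels in interneurons of the granular layer, while excitatory neurons held the largest share of its 116832 UMIs (37.7%), followed by molecular layer interneurons (24.2%) and inhibitory neurons (22.6%). Unipolar brush cells had 1983 to 2889 CPM (median 2302) and Golgi cells 1622 to 2626 CPM (median 1938), and unipolar brush cells were the higher in 11 of 11 samples by 289 ± 158 CPM (SD, n = 11). Molecular layer interneurons (819 ± 103 CPM), excitatory neurons (757 ± 81.3 CPM) and inhibitory neurons (612 ± 64.7 CPM) followed, and the first of these did not differ from the second beyond the spread (8 of 11 samples, exact permutation test, p = 0.0928). Astrocytes had 92.5 ± 57.1 CPM, and all other means were at most 29.3 CPM. At 1000 UMIs, 85.6% of unipolar brush cells and 82.98% of Golgi cells had a Grm8 UMI against 1.59% of microglia. A cluster of 471 nuclei led by Lmx1a, a marker of unipolar brush cells, was named as granule cells. It had 93.8 CPM of Grm8 when pooled (median 16.2, 0 to 666 CPM over the samples). Whether unipolar brush cells stay above Golgi cells with these nuclei counted among them was not tested. Among 14 excitatory clusters, that of 483 nuclei led by Il1rapl2 had 2237 CPM, and the lowest of the 14 had 82.1 CPM.

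Molecular layer interneurons were not uniform in Grm8. Their 10 clusters were divided by which of the markers Sorcs3 and Nxph1 was higher, and 1 cluster with Klhl1 and Nxph1 among its leading genes was kept apart. This division was chosen after the values were seen and is given with no test. The receptors themselves were not used for clustering. In the 7 Sorcs3 clusters (6240 nuclei) Grm8 was at 852 to 1320 CPM over the samples (median 1022), and in 2 Nxph1 clusters (1517 nuclei) it was at 2.12 to 22.3 CPM (median 10.6). The ranges were far apart, and the second overlapped that of microglia (6.61 to 28.7 CPM). For Grm3 the ranges were apart as well, with 258 to 673 CPM (median 501) against 24.5 to 63.5 CPM (median 46.3), and for Grm7 too, with medians of 271 and 24.8 CPM. Grm5 had medians of 22.6 and 67.2 CPM. The cluster kept apart, of 164 nuclei, had 767 to 1080 CPM of Grm5 (median 868) and 9.91 CPM of Grm8 (median). It held 1196 of the 2248 Grm5 UMIs of all molecular layer interneurons. Among the Sorcs3 clusters the pooled level of Grm8 ran from 161 to 2141 CPM.

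**Figure D4:**
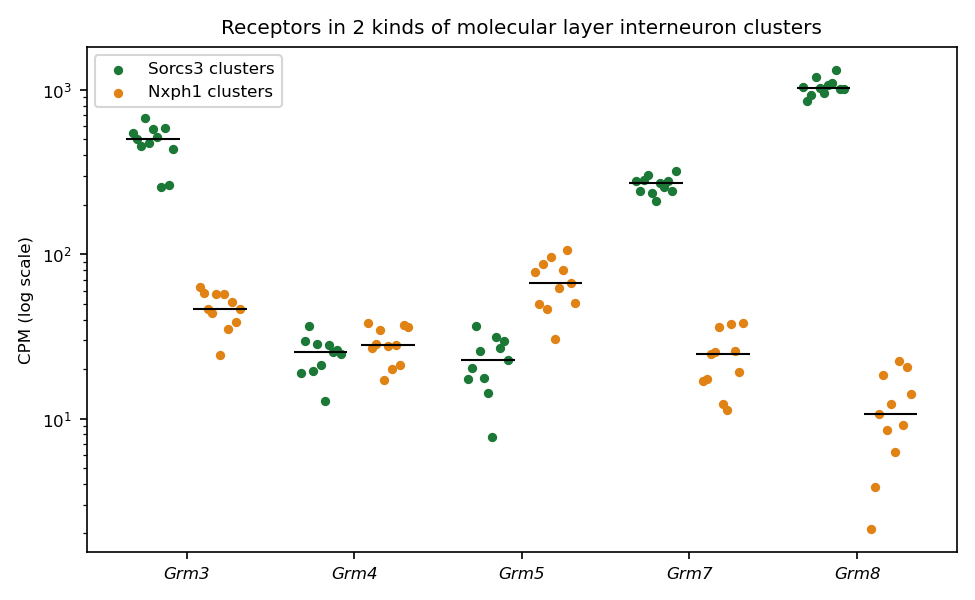
Level of 5 receptor genes (CPM, log scale) in each of the 11 samples for molecular layer interneurons of Sorcs3 clusters (green) and Nxph1 clusters (orange), with a line at the median. Grm3, Grm7 and Grm8 are higher in Sorcs3 clusters in each sample, Grm8 with medians of 1022 and 10.6, and the medians of Grm4 are 25.3 and 27.9.

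Grm6 was barely detected. In total 10 UMIs were counted in all 12 classes, 5 in granule cells, 3 in excitatory neurons and 1 each in inhibitory neurons and molecular layer interneurons. The 8 other classes had none. For a single sample this allows levels up to the value of 3 UMIs. That value ran from 0.375 CPM in the deepest sample of mature oligodendrocytes to 36.5 CPM in the shallowest of Bergmann glia. Over all 11 samples these classes held 4.99e+07 and 2.55e+06 UMIs, so the limit for a class as a whole is lower.

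Introns are counted in nuclei, and long genes can collect more UMIs, so levels of different receptors were compared per 100 kb of gene. This scale assumes that UMIs grow in proportion to gene length, which was not tested, and the orders between receptors below depend on it. Grm2 (chr9:106520294-106533870, minus strand, GRCm39) spans 13.6 kb and Grm6 (chr11:50741512-50757035, plus strand) 15.5 kb. Grm4 (chr17:27641361-27740377, minus) spans 99.02 kb, Grm3 (chr5:9534069-9776088, minus) 242 kb and Grm5 (chr7:87233376-87784594, plus) 551 kb. Grm8 (chr6:27275118-28135177, minus) and Grm7 (chr6:110622542-111544191, plus) are the longest, at 860 and 922 kb. On this scale Grm2 had the highest mean in Golgi cells, at 741 ± 334 CPM per 100 kb against 444 ± 47.4 for Grm3, 235 ± 31.6 for Grm8 and 197 ± 23.9 for Grm7. It was the highest in 9 of 11 samples, and Grm3 was the highest in NestinCre EAE replicate 1 and fl EAE replicate 4. In mature oligodendrocytes Grm3 had 670 ± 59.7 CPM per 100 kb and Grm7 243 ± 35.5, the reverse of their order in CPM. Granule cells had 382 ± 94.2 CPM of Grm4 per 100 kb, OPCs 309 ± 35.9 of Grm5, Purkinje cells 296 ± 15.1 of Grm7 and unipolar brush cells 269 ± 31.1 of Grm8.

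The genes whose levels over the 12 classes were most like those of each receptor were found by Pearson's r of the mean log2(CPM + 1) among 13490 genes of at least 10 CPM in a class. The 12 points share libraries and depth, and r is given as a description. Grm4 was most like Kcnj12 (r = 0.95), Cadps2 (0.95), a granule cell marker of the list used for naming, and Ltbp2 (0.94), and Grm8 like Capn6, Zfand1 (0.96 each) and Gm8237 (0.95). Among the nearest genes were Wnt9b (0.91) and Ces5a (0.87) for Grm2, Gm42455 (0.94), Pcyt2 and Tom1l2 for Grm3, Gm44847 (0.96), Mpped1 and Fam163a for Grm5, and Kcna6 (0.93), a potassium channel, Edil3 and Fign for Grm7. Grm6 did not reach the level needed.

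In EAE, the genotypes were compared in each class on UMIs summed per sample (edgeR's quasi-likelihood test with sequencing run as a covariate and Benjamini-Hochberg adjustment over all genes of a class). Of the 84 pairs of a receptor and a class, 55 passed the filter on low counts. None was called at an adjusted p under 0.05, where 1.23% of all 113140 pairs of a gene and a class were; 4 of the 55 had an unadjusted p under 0.05 (7.27%, against 8.13% of all pairs tested), and DESeq2 called 1 pair. In NestinCre EAE 24 pairs were higher and 31 lower, with a median log2 fold change of -0.03 against 0.00 over all genes tested. The median half-width of the 95% intervals was 0.38 on the log2 scale. Both groups without overlap were found in 2 of the 55 pairs, Grm4 in granule cells and Grm3 in mature oligodendrocytes, both lower in NestinCre EAE. Over all genes tested 4.66% of pairs did not overlap.

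**Figure D5:**
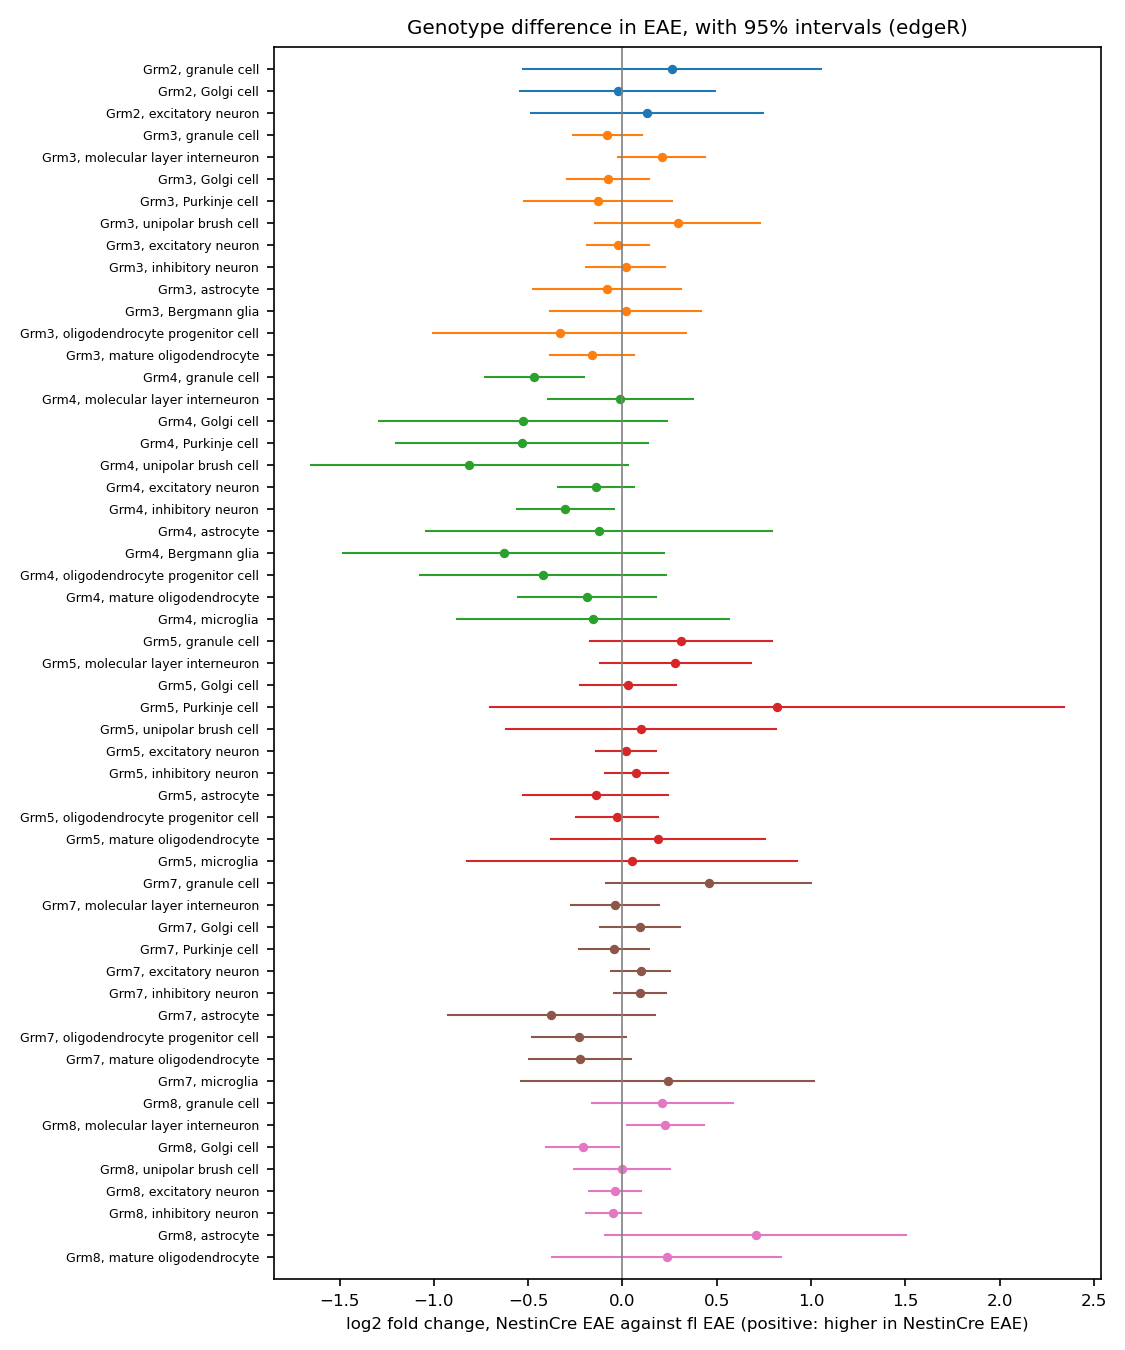
Log2 fold change between NestinCre EAE and fl EAE (4 samples each) with its 95% interval for the 55 tested pairs of a receptor and a class, coloured by receptor, positive where NestinCre EAE is higher. The intervals of 51 pairs include 0; Grm4 in granule cells lies at -0.47 (-0.73 to -0.21).

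Grm4 in granule cells had the smallest adjusted p of these pairs. The samples of fl EAE had 400, 418, 407 and 379 CPM (replicates 1 to 4), and those of NestinCre EAE 234, 256, 359 and 333 CPM. All NestinCre EAE samples lay below all fl EAE samples, replicates 1 and 2 the furthest. The log2 fold change was -0.47 ± 0.12 (SE), with an adjusted p of 0.0915 by edgeR, and the pair passed with DESeq2 (adjusted p = 0.00649) and without NestinCre EAE replicate 3 (log2 -0.60, adjusted p = 0.0263); over all alternatives the adjusted p ran from 0.00649 to 0.294. In samples of run 1 alone the log2 fold change was -0.51. The fl naive samples had 581 CPM (replicate 2) and 445 CPM (replicate 3) and the NestinCre naive sample 355 CPM, below both. At 1000 UMIs a Grm4 UMI was found in 32.1% of granule cells of fl EAE and 24.7% of NestinCre EAE (group means). At such levels this share follows largely from the mean level. It therefore cannot tell fewer expressing nuclei from a lower level in each nucleus.

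Grm4 was lower in NestinCre EAE in 11 of 12 granule cell clusters with at least 10 nuclei in each EAE sample. In 7 of them the groups did not overlap, and log2 ratios ran from -0.53 to 0.36. The exception to the lower level was the cluster led by Prr5l. These clusters divide the nuclei of the same samples, so the counts are not independent of the class value, and no share over all genes was computed. The Nlrc5-led cluster made up 8.20% of granule cells in NestinCre EAE replicate 1 and 2.31% in replicate 3, and at most 1.02% in any other sample. Without that cluster, those led by Prr5l and Lmx1a and one of mature oligodendrocytes named below, an alternative chosen after seeing the data, the log2 fold change was -0.47 and the adjusted p 0.0851. Grm4 was lower in NestinCre EAE in 12 of 12 classes, with log2 fold changes from -0.81 to -0.01 of which 10 had an interval that includes 0. The classes come from the same samples, and no share over all genes was computed for this count. UMIs of granule cell genes were found in all classes, and the part of granule cell RNA in these differences was not tested.

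In mature oligodendrocytes Grm3 was at 1833, 1671, 1607 and 1869 CPM in fl EAE and at 1568, 1607, 1597 and 1512 CPM in NestinCre EAE. The groups did not overlap, but the nearest samples were less than 1 CPM apart. The log2 fold change was -0.16 with a 95% interval of -0.38 to 0.06. It was -0.08 without fl EAE replicate 4 and -0.07 without NestinCre EAE replicate 4. These were the only EAE samples of run 2, so with run in the model both values rest on the samples of run 1. A cluster of 1475 mature oligodendrocytes with the interferon-induced genes Iigp1 and Irgm2 among its leading genes moved with the genotype: it was 8.83% to 23.1% of the class in NestinCre EAE, 0% to 4.90% in fl EAE and at most 0.176% in naive samples. In this cluster the pooled level of Grm3 was 1272 CPM, against 1965, 1249 and 1011 CPM in the other 3 clusters of the class. Without the 4 clusters left out above, Grm3 was at 1637 to 1876 CPM in fl EAE and 1573 to 1710 CPM in NestinCre EAE, so that the groups overlapped and the log2 fold change was -0.11.

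Grm7 in the same class was at 2486, 2328, 2380 and 2600 CPM in fl EAE and at 2135, 1567, 2181 and 2588 CPM in NestinCre EAE. Replicate 2 of NestinCre EAE was the lowest and replicate 4 lay within the range of fl EAE, and the log2 fold change was -0.23 (95% interval -0.50 to 0.04), or -0.12 without that replicate 2. Without the Iigp1 cluster, and the 3 of granule cells named above, it was -0.17.

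By edgeR's quasi-likelihood test, the remaining pairs with an unadjusted p under 0.05 were Grm8 in molecular layer interneurons (log2 0.23, adjusted p = 0.587), Grm8 in Golgi cells (-0.21, adjusted p = 0.814) and Grm4 in inhibitory neurons (-0.30, adjusted p = 0.955). The last had 39.0 to 45.0 CPM in fl EAE and 25.8 to 41.0 CPM in NestinCre EAE, which overlapped, and its log2 fold change ran from -0.61 (nuclei without granule cell UMIs) to -0.15 (at most 6000 UMIs per nucleus) over the alternatives. Grm8 in molecular layer interneurons had 673 to 828 CPM in fl EAE and 744 to 1038 CPM in NestinCre EAE, and the groups overlapped; without NestinCre EAE replicate 1 the log2 fold change was 0.13. In Golgi cells it had 1928 to 2311 CPM and 1622 to 1940 CPM, which overlapped as well. None of these passed under any alternative.

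EAE was compared with the naive state in Il12rb2fl/fl mice in a fit of all 11 samples with run as a covariate. There were 4 fl EAE and 2 fl naive samples. Run 3 held only fl naive replicate 3 and the lone NestinCre naive sample, so with run in the model replicate 3 had no weight. Unless run is left out, the fold changes and tests of this comparison rest on fl naive replicate 2 as the only naive sample. Only run 2 held both states, with 1 fl sample of each, and the naive mice had received no pertussis toxin. Of 63 pairs tested none was called by edgeR, where 0.118% of all pairs of a gene and a class were, 8 had an unadjusted p under 0.05 (12.7%, against 8.25% of all pairs) and DESeq2 called 1 of 61. Grm3 in molecular layer interneurons was the pair with the lowest unadjusted p. It had 436, 413, 375 and 412 CPM in fl EAE against 213 and 211 CPM in fl naive, without overlap, and in run 2 alone the values were 412 and 213 CPM. The log2 fold change was 0.93 ± 0.20 (SE) with an adjusted p of 0.328, and the call was made with DESeq2 (adjusted p = 0.0316), with no run in the model (0.0266), with all genes of at least 1 count (1.39e-05) and without NestinCre EAE replicate 1 (0.0146); over the alternatives the adjusted p ran up to 0.594. NestinCre EAE samples had 380 to 547 CPM and the NestinCre naive sample 364 CPM, above both fl naive samples.

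Grm7 in astrocytes was lower in fl EAE, with a log2 fold change of -1.57 ± 0.44 (SE), an adjusted p of 0.140, and 0.0208 where doublets were kept. With no run in the model the log2 fold change was -0.68 (adjusted p = 0.688). Its values of 190, 122, 67.8 and 62.2 CPM in fl EAE overlapped those of 205 and 147 CPM in fl naive. They rest on 37 to 60 UMIs per sample. One cluster of 260 of the 1272 astrocytes, led by Stk32a, held 221 of the 388 Grm7 UMIs of the class. It had 282 CPM when pooled, against 43.7 and 62.8 CPM in the other large clusters. The part of its share of the class in this difference was not tested. In mature oligodendrocytes Grm7 had 1751 and 2228 CPM in fl naive, below all fl EAE samples, with a log2 fold change of 0.68 (95% interval 0.20 to 1.17) and an adjusted p of 0.198. With no run in the model it was 0.36.

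The remaining pairs with an unadjusted p under 0.05 had low levels. Grm3 and Grm7 in microglia, the class used above as the low comparison, were at 10.3 to 22.4 and 17.2 to 61.7 CPM in fl EAE and at 29.1 to 48.1 and 86.5 to 87.3 CPM in fl naive (log2 -1.76 and -1.48). Without fl EAE replicate 4 the value of Grm7 was -0.94, and without NestinCre EAE replicate 4 it was -2.30. In granule cells Grm8 was at 8.91 to 13.04 CPM in fl EAE and 21.9 to 23.5 CPM in fl naive (log2 -0.67). Without the 4 clusters left out above it was at 6.32 to 12.4 CPM in fl EAE (log2 -1.05). The fl naive replicates 2 and 3 then had 20.7 and 13.2 CPM, so replicate 3 came close to the fl EAE samples. Grm3 in granule cells was at 47.7 to 59.9 and 52.9 to 64.6 CPM (log2 -0.37, and -0.04 with no run in the model), which overlapped. Grm4 in Purkinje cells had 15.4 to 33.8 CPM in fl EAE and 42.7 to 61.8 CPM in fl naive (log2 -0.95). Over whole libraries Grm3, Grm7 and Grm8 were at 231, 676 and 222 CPM in fl EAE replicate 4. In fl naive replicate 2, of the same run, they were at 366, 1090 and 356 CPM. In fl naive replicate 3 they were at 223, 714 and 202 CPM. Grm4 was at 239, 229 and 261 CPM in these samples, in the same order. The part of RNA from other classes in these low levels was not tested.

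Among naive mice, 1 NestinCre sample was compared with the fl samples in the same fit, with the lone sample assumed to vary like the other groups. With run in the model the comparison is with fl naive replicate 3 alone, and fl naive replicate 2, from another run, has no weight. No receptor pair of 63 was called (0.00315% of all pairs were), 11 had an unadjusted p under 0.05 (17.5%, against 4.25% of all pairs) and DESeq2 called none. Grm8 in excitatory neurons had the smallest adjusted p (0.479, log2 0.54), with 775 CPM in the NestinCre sample, between the 896 CPM of fl naive replicate 2 and the 559 CPM of replicate 3. The latter was sequenced in the same run as the NestinCre sample, and the run term sets that pair against each other. It was the lowest of the 11 samples for Grm8 in excitatory neurons, for Grm5 in OPCs (1255 CPM) and for Grm3 in mature oligodendrocytes (1331 CPM) and Bergmann glia (243 CPM). The interaction, which asks whether the genotype difference itself changed with EAE, gave no call in 63 pairs (0.00472% of all pairs), 9 with an unadjusted p under 0.05 (14.3%, against 5.06% of all pairs), and none by DESeq2. For Grm4 in granule cells the naive difference was -0.24 on the log2 scale (95% interval -0.76 to 0.27) and the interaction -0.23 (-0.80 to 0.35), an interval that does not resolve whether the genotype difference depends on EAE.

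The genes that carry the signal of these receptors were tested in the same fits. The 39 genes of the Gq arm, the Gi/o arm, the regulators of G protein signalling and the scaffolds gave 334 pairs of a gene and a class between NestinCre EAE and fl EAE, of which 2 were higher and 1 lower at an adjusted p under 0.05 by edgeR. The share is near the 1.23% of all pairs tested; 33 pairs had an unadjusted p under 0.05 (9.88%, against 8.13% of all pairs), and DESeq2 called 2 pairs. The median log2 fold change was 0.03.

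Of the Gq arm 1 pair rose and 1 fell among 83, both Prkca, the protein kinase C alpha gene. In Bergmann glia Prkca had 467, 453, 322 and 622 CPM in fl EAE and 1122, 583, 713 and 1212 CPM in NestinCre EAE, a log2 fold change of 1.01 ± 0.20 (SE; adjusted p = 0.0175), with 1 NestinCre sample below the highest fl sample. In microglia Prkca fell by 0.65 on the log2 scale (adjusted p = 0.00972), from 425 to 589 CPM in fl EAE to 293 to 349 CPM in NestinCre EAE, without overlap. Of 31 pairs of RGS genes 1 rose, Rgs7 in microglia, whose product speeds the return of Gi/o to its inactive state, with a log2 fold change of 1.02 ± 0.30 (SE; adjusted p = 0.0461) at 16.8 to 39.6 CPM in fl EAE and 42.3 to 77.7 CPM in NestinCre EAE. The lowest of these Rgs7 values, in fl EAE replicate 2, stood for 3 UMIs. In naive microglia Rgs7 was at 40.4 and 51.8 CPM (fl) and 73.3 CPM (NestinCre), above each fl EAE sample. In the 2 EAE groups microglia came mostly from different clusters, and the part of this in the microglial values of Prkca and Rgs7 was not tested. None of 117 pairs of the Gi/o arm and none of 103 pairs of scaffolds and partners, such as the Homer and Shank genes, was called by edgeR, with 15 and 5 at an unadjusted p under 0.05.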

How the data were processed

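Samples were grouped by the genotype, disease state and run given in the labels. The authors deposited 10x 3′ counts of UMIs per gene and barcode, introns included, from Cell Ranger (version 7.0.0 for run 1 and 6.0.2 for runs 2 and 3 per the file headers) on GRCm39; library totals were 40761007 to 86063464 UMIs. From the 189709 barcodes, 188089 passed limits of 200 genes (run 1) or 500 genes (runs 2 and 3) and 5% mitochondrial UMIs, and 159282 stayed after removal of doublets by Scrublet (scanpy 1.11.5) and by cluster. Pairs of libraries shared 47 to 140 barcode sequences. Nuclei were clustered on 3000 variable genes, leaving out the receptors, after Harmony integration written for this work. Clusters took a class name from at least 3 markers; the naming thresholds were set after the clusters were seen, and 8.08% of kept nuclei stayed unnamed (8.63% in fl EAE, 7.42% in NestinCre EAE, 7.24% in fl naive and 10.5% in NestinCre naive).

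UMIs were summed per sample and class. Tests used edgeR 4.0.16 in R 4.3.3 (TMM, filterByExpr, run as a covariate) on classes with at least 10 nuclei in each sample, with DESeq2 1.42.0 as an alternative. The edgeR step was tested on simulated data. The labels do not say whether each sample was 1 mouse; the study's legends count the EAE samples as mice, 4 per genotype. The receptors and gene lists were chosen with earlier results of these data known. All 7 receptors were described in each class, with the 3 genes most like each (1 of them is not reported here) and the pathway genes that passed the genotype test. Gene positions are from GENCODE vM39, whose gene IDs matched for all 7. Share estimates and floors cover counting error only.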

Additional observations from a re-analysis of the deposited data

Results flagged for a closer look

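In 110 groups of 4 EAE samples (a receptor in a class), 6 had a sample whose distance from the nearest other was large for the range of its group, where chance gives about 5.5. Grm2 in Golgi cells was at 34.2 CPM in NestinCre EAE replicate 1, against 92.7 to 96.8 CPM in the other 3 samples. Grm5 in Purkinje cells was at 35.7 CPM in fl EAE replicate 4, with 4.09 to 8.84 CPM in the others, and at 88.7 CPM in NestinCre EAE replicate 2, with 2.60 to 6.67 CPM in the others. Grm5 in unipolar brush cells was at 229 CPM in fl EAE replicate 3, against 63.8 to 70.4 CPM. Grm8 in inhibitory neurons was at 749 CPM in NestinCre EAE replicate 4, against 564 to 583 CPM. Grm5 in mature oligodendrocytes was at 46.5 CPM in NestinCre EAE replicate 4, against 28.7 to 29.0 CPM.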

How the results depend on the processing

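The count of called pairs between the genotypes in EAE was 0 and became 1 with DESeq2 (Grm4 in granule cells) and 1 with genes of at least 1 count (75 pairs tested, Grm8 in Purkinje cells, where 66 of the UMIs came from NestinCre EAE replicate 2); leaving out 1 sample gave 0 to 1. Between fl EAE and fl naive it was 0 and became 1 with DESeq2, 1 with genes of at least 1 count, 1 with no run in the model and 1 with doublets kept, and 0 to 1 on leaving out a sample. For the naive genotypes it became 2 with genes of at least 1 count, and the interaction count stayed at 0 under each alternative. With the replicate number as a block the genotype count in EAE was 0, and in no class did all 3 same-numbered pairs of run 1 correlate in their deviations above 0.1, so the numbers are not read as pairing. The count of 5 receptors whose highest class exceeded the next ran from 4 (at most 6000 UMIs per nucleus) to 6 (shares of nuclei at 1000 UMIs, or without fl naive replicate 3). Of 245 values of 14 pairs under alternatives none changed sign, and 7 passed the threshold that the reported value missed. The pairs were picked for an unadjusted p under 0.05 by edgeR between the EAE genotypes or between fl EAE and fl naive. Grm3 and Grm7 in mature oligodendrocytes were added for the genotypes. The alternatives reuse most of the same counts, so a stable sign in pairs picked this way is no separate support. Limiting nuclei to 6000 UMIs left 10 classes, and leaving out nuclei with granule cell UMIs left 6, with 42 and 26 pairs tested between the EAE groups. Leaving out 4 clusters was chosen after seeing the data and called 0 pairs. Depth limited Bergmann glia and unipolar brush cells most, where 3 UMIs in the shallowest sample stood for 36.5 and 34.4 CPM. In Golgi and Purkinje cells that value was at most 14.6 and 12.6 CPM. Golgi, Purkinje and unipolar brush cells had as few as 16 nuclei in a sample.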
